A study of Mus musculus with 21 samples.

Results

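The miR-106b to miR-25 cluster of the mouse gives 3 leading microRNAs (miRNAs), miR-106b-5p, miR-93-5p and miR-25-3p, from hairpins that lie side by side in an intron of Mcm7. They were chosen as the leading strands of 1 genomic cluster, by name, with earlier results of these data known, and they are 3 of the 1125 mature miRNAs in the authors' table. All 3 passed a filter on low read counts, which 431 miRNAs passed in all. They were followed by small RNA sequencing in whole kidneys of male BALB/c mice, 12 weeks old, given folic acid at 250 mg/kg in sodium bicarbonate, a dose that injures the renal tubules. Kidneys of days 0, 1, 2 and 3 and of days 7, 14 and 28 were sequenced, with 3 libraries for each time and 21 in all. Whether the day 0 mice had an injection is not stated in the labels, and every later day comes from folic acid mice, so folic acid, its vehicle, the injection and the passage of time cannot be told apart. The labels do not say that the 3 libraries of a day are separate animals, and p-values therefore measure the spread between libraries.

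Mcm7 encodes a subunit of the helicase that opens DNA for replication, and its transcription is known to be driven by E2F factors as cells enter the cycle. Its intron is cut by Drosha and Dicer into the hairpins and mature strands of the cluster, so the members start from the same primary transcript. miR-106b and miR-93 belong to the miR-17 seed family, known for repressing the cell cycle inhibitor Cdkn1a (p21), and miR-25 belongs to the miR-92 seed family, known for repressing the pro-apoptotic gene Bcl2l11 (Bim). In kidney, tubule cells that outlive an injury are known to re-enter the cell cycle and repopulate the tubule.

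The mature sequences are shown with their relatives, 5′ to 3′ and with the seed (bases 2 to 8) in capitals, because the seed sets which messages a miRNA pairs with and puts the members in 2 families. All sequences and positions here are from RefSeq, build GRCm38.p6, in which 14 of 14 miRNAs asked for were found. The first family holds 2 members, with miR-17-5p and miR-20a-5p of chromosome 14 as its other abundant strands.
miR-106b-5p: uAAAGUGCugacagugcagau
miR-93-5p: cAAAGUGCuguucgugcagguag
miR-17-5p: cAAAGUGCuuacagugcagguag
miR-20a-5p: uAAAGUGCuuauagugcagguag
The second family holds miR-25-3p, with miR-92a-3p as its most abundant strand. miR-92a-3p has a hairpin on chromosome 14 and another on chromosome X, and reads do not show which of them made it.
miR-25-3p: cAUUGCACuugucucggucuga
miR-92a-3p: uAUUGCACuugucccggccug
miR-106b-5p has 21 bases, miR-93-5p 23 and miR-25-3p 22. Counted from the 5′ end, miR-106b-5p and miR-93-5p are identical at 16 of 21 positions, and miR-25-3p and miR-92a-3p at 18 of 21. No other miRNA of the table had the same reads as any member, and how the authors assigned reads that match several relatives is not stated in the labels.

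In GRCm38, with GENCODE's gene models, the 3 hairpins stand on the minus strand of chromosome 5, at chr5:138165737-138165818 (Mir106b), chr5:138165523-138165610 (Mir93) and chr5:138165321-138165404 (Mir25). They are 126 and 118 bases apart and span 498 bases. All 3 fall in intron 13 of the 15-exon transcript Mcm7-201, an intron of 748 bases, and overlap none of its exons. The hairpins are printed with the strand of the member in capitals, to show that miR-106b-5p and miR-93-5p come from the 5′ side and miR-25-3p from the 3′ side.
Mir106b: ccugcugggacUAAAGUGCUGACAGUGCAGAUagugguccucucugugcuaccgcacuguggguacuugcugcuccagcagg
Mir93: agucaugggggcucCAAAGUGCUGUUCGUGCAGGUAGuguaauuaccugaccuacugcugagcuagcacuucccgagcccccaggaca
Mir25: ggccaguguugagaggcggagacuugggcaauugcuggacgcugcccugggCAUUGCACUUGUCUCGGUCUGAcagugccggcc
The members are transcribed with Mcm7, and no start site of their own is used here. A window around a RefSeq start of Mcm7, chr5:138171834-138172133 on the minus strand, was searched on both strands for the E2F letters TTTCCCGC, TTTGGCGC, TTTCGCGC and TTTGCCGC and for CCAAT, and the matches are in capitals.
Mcm7 promoter: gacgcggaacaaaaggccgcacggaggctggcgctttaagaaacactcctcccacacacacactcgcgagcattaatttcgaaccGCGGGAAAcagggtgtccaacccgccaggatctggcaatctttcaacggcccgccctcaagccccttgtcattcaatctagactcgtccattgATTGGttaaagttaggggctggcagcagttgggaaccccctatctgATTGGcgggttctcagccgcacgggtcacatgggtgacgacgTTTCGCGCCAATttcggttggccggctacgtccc
It holds 2 matches to the E2F letters, which occur in 2.26% of 32851 promoter windows, and 3 to CCAAT, which occurs in 37.4%. The last E2F match and the last CCAAT share a base. The window of the other RefSeq start of Mcm7 holds 0 E2F matches and 1 CCAAT. A match describes the letters only, and binding was not measured.

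Levels are given as CPM, the reads of a miRNA per 1000000 reads assigned to miRNAs, scaled between libraries by TMM (a factor that balances most miRNAs, here 0.872 to 1.14). A level is a share of the miRNA pool of a whole kidney, so fewer cells of a type and less of a miRNA per cell cannot be told apart. The libraries held 2875675 to 7110546 such reads, with a median of 4494595. Every library held reads of each member, from 263 to 2153 for miR-106b-5p, 2594 to 9778 for miR-93-5p and 3923 to 16431 for miR-25-3p, so counting error is largest for miR-106b-5p. At day 0, miR-25-3p ranked 51 of 1125 by mean level, miR-93-5p ranked 60 and miR-106b-5p ranked 149, although the 3 are cut from the same transcript. Whether different sequences were read equally well was not measured, so levels of different miRNAs compare reads and not molecules.

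The cluster as a whole took a larger share of the miRNA pool during injury and had come most of the way back by day 28. Its 3 members together held 0.233% ± 0.0202 of the reads at day 0, 0.275% ± 0.0338 at day 1, 0.365% ± 0.00674 at day 2, 0.385% ± 0.0179 at day 3, 0.394% ± 0.00388 at day 7, 0.305% ± 0.0512 at day 14 and 0.243% ± 0.00493 at day 28 (SD, n = 3 per day). miR-25-3p made up 55.4% to 64.3% of that sum on the day means, miR-93-5p 31.9% to 39.1% and miR-106b-5p 3.58% to 5.57%. All 3 members changed over the course (F test of limma over 7 days, adjusted p = 0.000423 for miR-106b-5p, 2.66e-05 for miR-93-5p and 0.000182 for miR-25-3p), as did 63.1% of the 431 miRNAs tested.

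**Figure D1:**
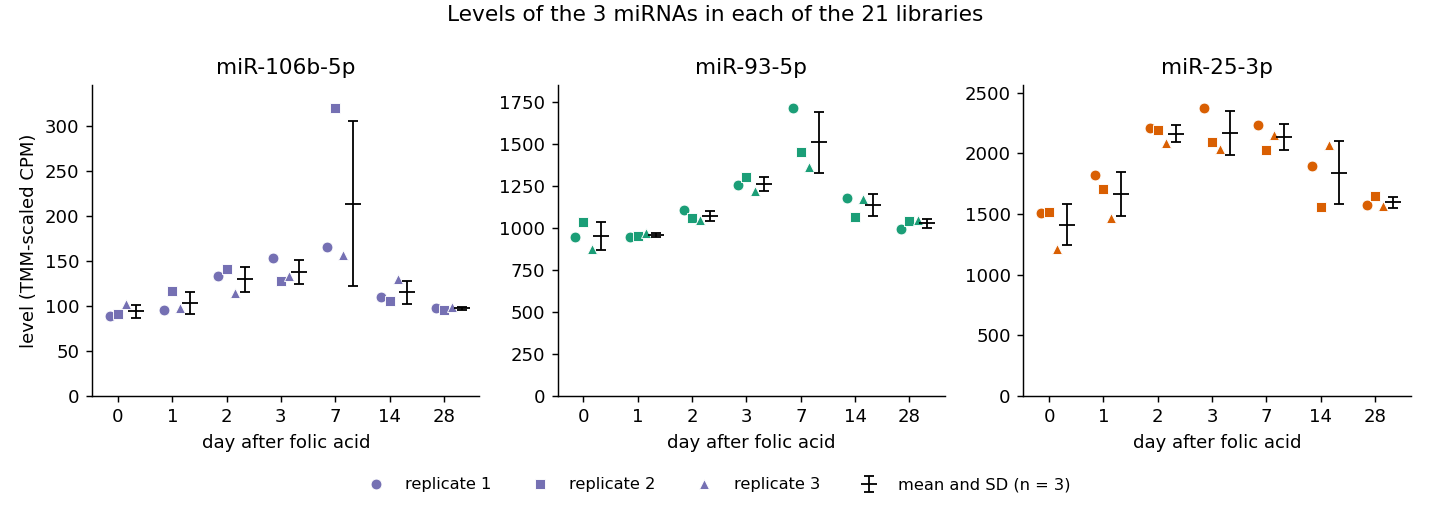
Level of miR-106b-5p, miR-93-5p and miR-25-3p (TMM-scaled CPM, linear axes from 0) in each library by day after folic acid, with symbols for the replicate numbers and a bar for the mean ± SD of 3 libraries. miR-25-3p is near its highest mean from day 2 to day 7, miR-93-5p has its highest mean on day 7, and 1 library of day 7 holds miR-106b-5p at 320 CPM.

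miR-25-3p, the most abundant member, was the first of the 3 to pass the test and then held a plateau. Replicates 1, 2 and 3 had 1506, 1516 and 1213 CPM on day 0, 1819, 1702 and 1465 on day 1, 2205, 2195 and 2081 on day 2, 2374, 2089 and 2035 on day 3, 2231, 2023 and 2148 on day 7, 1892, 1557 and 2070 on day 14, and 1577, 1644 and 1564 on day 28. On days 2, 3, 7, 14 and 28 every library lay above every library of day 0, and only day 1 overlapped with it. Against day 0 the log2 fold change was 0.24 at day 1 (SE 0.11, adjusted p = 0.131 in limma), 0.62 at day 2 (adjusted p = 0.000169), 0.62 at day 3 (0.000126), 0.60 at day 7 (0.000155), 0.38 at day 14 (0.00986) and 0.18 at day 28 (0.321), with the same SE on each day. It thus rose on days 2, 3, 7 and 14. The call of day 14 ended when either of 2 libraries was left out, day 0 replicate 3 (0.23, adjusted p = 0.140) or day 14 replicate 3 (0.27, with 0.111). Being first rests on the threshold, since miR-106b-5p had adjusted p = 0.0518 in limma on day 2. The timing of the members was not compared by a test.

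The days of the plateau could not be ordered. Mean levels of miR-25-3p were highest on day 3 (2166 ± 182 CPM), then on day 2 (2160 ± 69.0) and day 7 (2134 ± 105, SD, n = 3 each), and the libraries of these days overlapped. They were followed by day 14, day 1, day 28 and day 0, and along that order only day 28 and day 0 did not overlap. From day to day, where 2.78% of all miRNAs changed on day 2 against day 1, 5.34% on day 3 against day 2 and 1.86% on day 7 against day 3, no step of miR-25-3p passed the test, the largest being day 2 against day 1 (log2 fold change 0.38, adjusted p = 0.0617), which passed only without day 14 replicate 2 (adjusted p = 0.0447) among the 21 omissions of a library.

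miR-93-5p stayed at its day 0 level for a day and climbed to day 7. Replicates 1, 2 and 3 had 949, 1036 and 873 CPM on day 0, 945, 956 and 969 on day 1, 1108, 1058 and 1048 on day 2, 1258, 1306 and 1222 on day 3, 1717, 1455 and 1364 on day 7, 1177, 1065 and 1172 on day 14, and 995, 1042 and 1046 on day 28. Every library of days 2, 3, 7 and 14 lay above every library of day 0, while days 1 and 28 overlapped with it. Log2 fold changes against day 0 were 0.0093 at day 1 (SE 0.092, adjusted p = 0.962), 0.17 at day 2 (0.134), 0.41 at day 3 (0.000948), 0.66 at day 7 (5.01e-06), 0.26 at day 14 (0.0264) and 0.11 at day 28 (0.466). It rose on days 3, 7 and 14. The call of day 14 is weak, since leaving out a library ended it for 10 of 21 libraries, most of all day 0 replicate 3 (0.15, adjusted p = 0.251).

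By mean level, day 7 of miR-93-5p (1512 ± 183 CPM) came before day 3 (1262 ± 42.5), and these neighbours did not overlap. Day 3 in turn lay above day 14 (1138 ± 63.5, SD, n = 3 each) with no overlap, and the last places went to day 2, day 28, day 1 and day 0. The steps up to day 7 did not pass the test singly, at a log2 fold change of 0.16 for day 2 against day 1, 0.24 for day 3 against day 2 and 0.25 for day 7 against day 3 (adjusted p = 0.341, 0.198 and 0.148).

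miR-106b-5p, the scarcest member, had the largest fold change of the 3 on day 7, and a library of that day carries much of it. Replicates 1, 2 and 3 had 88.3, 91.2 and 102 CPM on day 0, 94.9, 117 and 98.2 on day 1, 134, 141 and 114 on day 2, 153, 127 and 133 on day 3, 165, 320 and 156 on day 7, 110, 106 and 130 on day 14, and 97.4, 95.2 and 99.2 on day 28. Every library of days 2, 3, 7 and 14 lay above every library of day 0. Log2 fold changes against day 0 were 0.13 at day 1 (SE 0.19, adjusted p = 0.638), 0.46 at day 2 (0.0518), 0.55 at day 3 (0.0181), 1.10 at day 7 (4.94e-05), 0.29 at day 14 (0.215) and 0.053 at day 28 (0.886). It rose on days 3 and 7. By mean level the order was day 7 (214 ± 92.2 CPM), day 3 (138 ± 13.6), day 2, day 14, day 1, day 28 and day 0 (93.9 ± 7.32, SD, n = 3 each), and among these neighbours only day 7 and day 3 did not overlap. The call of day 3 was lost without day 0 replicate 1 (0.46, adjusted p = 0.0757) or day 3 replicate 1 (0.49, adjusted p = 0.0615), and day 2 was called without any of 5 libraries, with adjusted p from 0.00275 without day 7 replicate 2 to 0.0480 without day 14 replicate 3.

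Replicate 2 of day 7 stood apart for miR-106b-5p. Its 320 CPM were 1.94 times the higher of the other libraries of that day, while miR-93-5p (0.847 times) and miR-25-3p (0.907 times) of the same library were below the higher of theirs. Of 293 miRNAs that averaged 10 CPM or more, 3 were over 1.5 times the higher of the others in that library, and miR-106b-5p was the highest of them, followed by miR-133a-3p and miR-500-3p. Such miRNAs numbered from 0, as in day 1 replicate 1, to 16 in day 0 replicate 3. Over all 21 libraries, 17 of 6153 values, from 15 miRNAs, were over 2 times both others of their day. The other strand of the miR-106b hairpin, miR-106b-3p, had 74.4 CPM in replicate 2 of day 7, against 72.6 and 88.2 CPM in replicates 1 and 3. Without that library miR-106b-5p was still higher on day 7 than on day 0 (log2 fold change 0.76, adjusted p = 0.000103 in limma), and day 2 was called as well (0.48, adjusted p = 0.00275).

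The counts of members that rose are read against the share of all tested miRNAs that rose. On day 1, 0 of 3 members were called, where 14.2% of 431 miRNAs were higher. On day 2 it was 1 of 3 (24.4% of all higher), at day 3 it was 3 of 3 (30.4%), at day 7 it was 3 of 3 (29.7%), at day 14 it was 2 of 3 (25.1%) and at day 28 it was 0 of 3 (11.1%). No member was lower than day 0 on any day, where 11.1%, 19.0%, 19.0%, 22.7%, 17.9% and 1.86% of all miRNAs were lower on days 1, 2, 3, 7, 14 and 28. Members whose libraries all lay above those of day 0 numbered 0 of 3 on day 1, 3 of 3 on days 2, 3, 7 and 14 and 1 of 3 on day 28, and over all miRNAs tested this held for 18.1%, 31.3%, 31.6%, 31.1%, 27.4% and 21.6% on days 1, 2, 3, 7, 14 and 28. The median log2 fold change of the members was 0.13, 0.46, 0.55, 0.66, 0.29 and 0.11 on these days, and that of all miRNAs lay between -0.0053 and 0.075. All 6 comparisons use the same 3 day 0 libraries.

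These shares depend on the scaling of the libraries. With plain library totals the median of all miRNAs shifted by 0.18 on day 2 and 0.17 on day 3, and of all calls 70.7%, 75.3% and 74.4% were higher on days 1, 2 and 3, against 56.0%, 56.1% and 61.5% with TMM. Upper-quartile scaling shifted the median by -0.18 on day 7, where 45.1% of calls were higher against 56.6% with TMM. On day 28 85.7% of calls were higher with TMM, 75.6% with library totals and 58.0% with upper-quartile scaling. Under library totals miR-106b-5p and miR-93-5p were also called on day 2 (log2 fold change 0.65 and 0.37), and on day 28 the sign of miR-106b-5p turned under library totals (-0.028) and upper-quartile scaling (-0.072), as did that of miR-93-5p under upper-quartile scaling (-0.014).

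**Figure D2:**
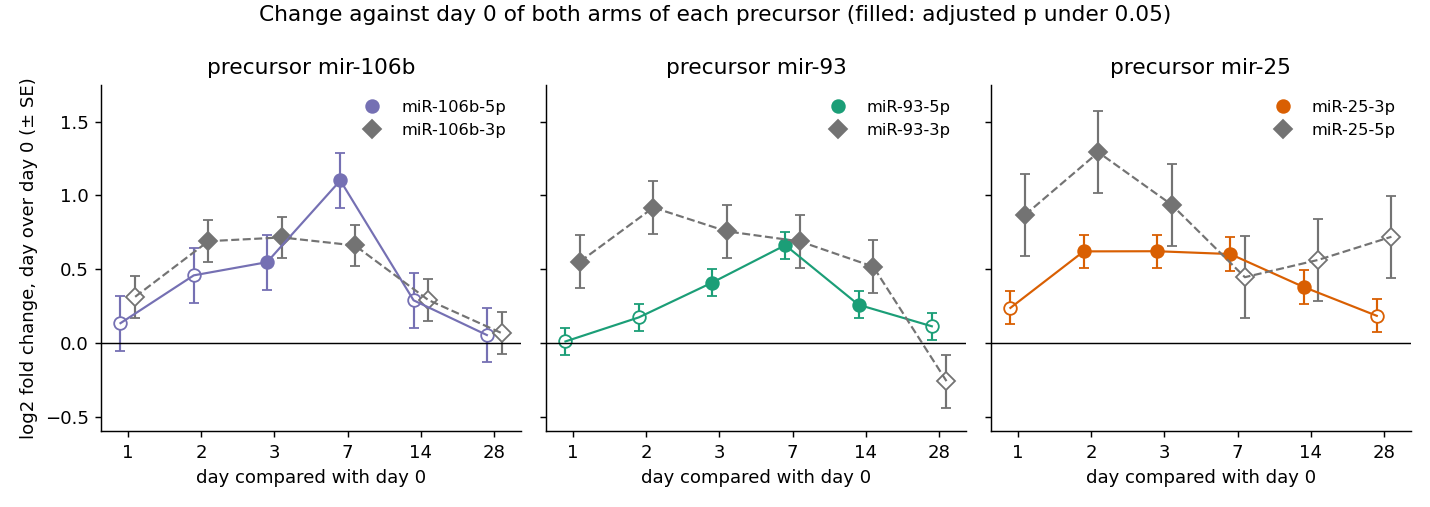
Log2 fold change of each day over day 0 (± SE, limma on TMM-scaled values) for the leading strand (colour, solid line) and the other strand (grey, dashed line) of each precursor, with filled symbols where the adjusted p is under 0.05. The leading strands are called together on days 3 and 7 only, and the other strands of mir-93 and mir-25 are already called on day 1.

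The return was tested without day 0. All 3 members fell on day 28 against day 7, by 1.05 on the log2 scale for miR-106b-5p (SE 0.19, adjusted p = 0.000212), by 0.55 for miR-93-5p (SE 0.092, adjusted p = 0.000132) and by 0.42 for miR-25-3p (SE 0.11, adjusted p = 0.00606), where 20.6% of all miRNAs were lower. The fall of miR-25-3p missed the threshold without day 28 replicate 3 (-0.37, adjusted p = 0.0502). That of miR-106b-5p starts from a day 7 mean that includes replicate 2, at 320 CPM. Its log2 fold change ran from -1.23 to -0.75 when each library was left out, and it stayed called. Of all calls in that comparison 44.4% were higher with TMM and 20% with library totals.

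The first step of the return, day 14 against day 7, was called for 2 of 3 members. miR-106b-5p fell by 0.81 and miR-93-5p by 0.40 on the log2 scale (adjusted p = 0.0163 for both), where 3.25% of all miRNAs were lower, and miR-25-3p stood at -0.22 (adjusted p = 0.320). In all 19 miRNAs were called in that step, against 0 in a fit of the 2 days alone and 5 to 46 when each library was left out. The call of miR-93-5p was lost under 4 of 12 other settings, with a log2 fold change of -0.25 under upper-quartile scaling, and that of miR-106b-5p under 2. For miR-106b-5p it was not called without day 7 replicate 2 (-0.49, adjusted p = 0.0526), day 14 replicate 1 (-0.77, 0.0574) or day 14 replicate 2 (-0.76, 0.0834), and for miR-93-5p without day 7 replicate 1 (-0.30, 0.121) or day 14 replicate 2 (-0.36, 0.112). No member changed on day 28 against day 14, where 12.3% of all miRNAs did (log2 fold changes -0.24, -0.15 and -0.20 for miR-106b-5p, miR-93-5p and miR-25-3p, adjusted p = 0.410, 0.289 and 0.236).

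Whether the rise belongs to the early or to the late days was asked by setting the mean of days 7, 14 and 28 over the mean of days 1, 2 and 3. miR-93-5p was higher late (log2 fold change 0.15, SE 0.053, adjusted p = 0.0326), as were 19.7% of all miRNAs. miR-106b-5p stood at 0.10 (adjusted p = 0.495) and miR-25-3p at -0.10 (adjusted p = 0.242). The call of miR-93-5p was lost for 11 of 21 omitted libraries, with adjusted p from 0.0510 to 0.130 among them. It was also lost under 5 of 11 other settings, and its log2 fold change was 0.016 with library totals and 0.071 with upper-quartile scaling. Under these scalings miR-25-3p was called lower late (-0.24 and -0.18, adjusted p = 0.0183 and 0.0382), and miR-106b-5p turned to -0.040 without day 7 replicate 2 and to -0.029 under library totals.

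The members did not keep a fixed ratio to each other. A log2 ratio between members of the same library depends on scaling only through the pseudocount of 1, which is small beside these levels. The ratio of miR-93-5p to miR-25-3p differed between days (permutation test over 100000 shuffles of the day labels, F = 6.17, p = 0.0032, adjusted over 3 ratios p = 0.0096). It was -0.56 ± 0.097 at day 0, -0.79 ± 0.18 at day 1, -1.01 ± 0.036 at day 2, -0.78 ± 0.12 at day 3, -0.50 ± 0.14 at day 7, -0.68 ± 0.14 at day 14 and -0.63 ± 0.047 at day 28 (SD, n = 3 per day). The 3 libraries of day 2 lay from -1.05 to -0.99, below every other library of the course, the next lowest being -0.94 on day 1. miR-25-3p was thus highest relative to miR-93-5p on day 2, and the libraries of day 7 overlapped with those of day 0. The adjusted p of this ratio stayed between 0.0024 and 0.0395 when each library was left out in turn.

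Neither ratio that involves miR-106b-5p passed the test. The ratio of miR-106b-5p to miR-93-5p had p = 0.328 (permutation test, adjusted p = 0.328) and that of miR-106b-5p to miR-25-3p had p = 0.0665 (adjusted p = 0.0998). Day means of the first lay between -3.39 on day 28 and -2.89 on day 7, and those of the second between -4.05 on day 2 and -3.39 on day 7. Both day 7 means include replicate 2, at -2.18 and -2.66. Leaving out day 7 replicate 1 brought both under the threshold (adjusted p = 0.0401 and 0.0400), as did day 7 replicate 3 (0.0298) and day 0 replicate 3 (0.0467) for the second, while leaving out replicate 2 of day 7 gave adjusted p = 0.327 and 0.524.

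**Figure D3:**
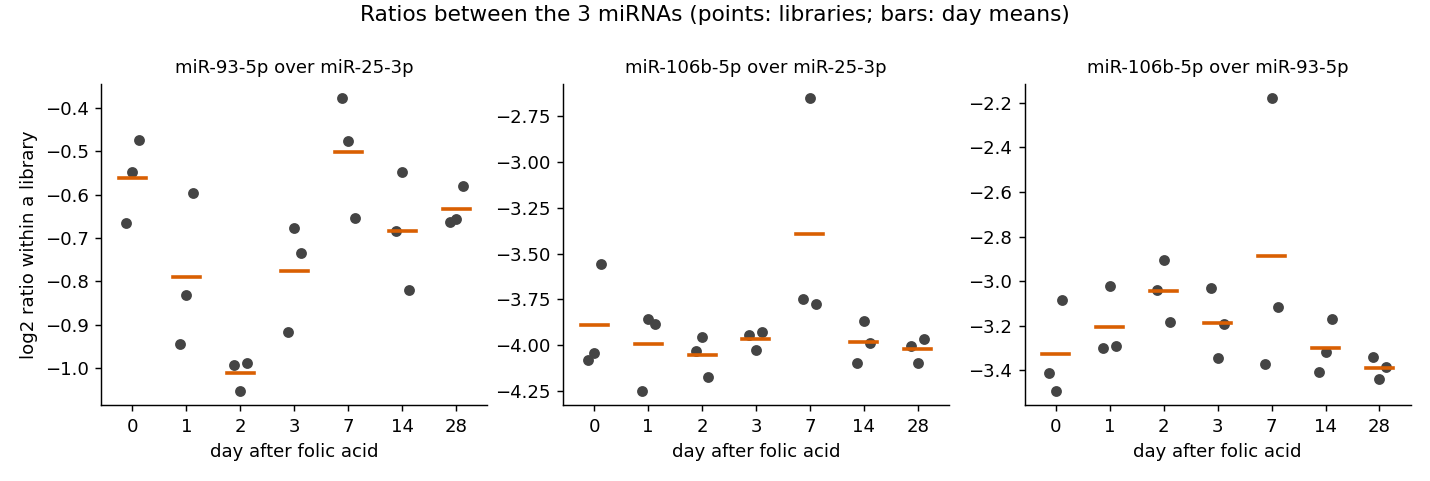
Log2 ratio between members within each library (points, 3 per day) and the mean of each day (bars) for the 3 possible ratios. For miR-93-5p over miR-25-3p the libraries of day 2, from -1.05 to -0.99, lie below all others, and a point of day 7 stands apart in both ratios of miR-106b-5p.

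The courses of the members can also be compared over the 7 day means, as a description without a test. Pearson's r of the log2 levels was 0.947 between miR-106b-5p and miR-93-5p, 0.816 between miR-106b-5p and miR-25-3p, and 0.757 between miR-93-5p and miR-25-3p. Over the 21 libraries the same pairs had 0.760, 0.633 and 0.716. The points share libraries and the scaling of each library, and the day 7 mean of miR-106b-5p includes replicate 2, at 320 CPM.

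Each hairpin also gives a second strand, which had fewer reads than its partner in every library. Of these 3 strands, 2 were already called on day 1. The 3 strands are shown with bases 2 to 8 in capitals, because none of them carries the seed of its partner.
miR-106b-3p: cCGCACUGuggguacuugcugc
miR-93-3p: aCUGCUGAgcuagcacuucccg
miR-25-5p: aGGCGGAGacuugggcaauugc
miR-106b-3p ran from 41.4 to 88.2 CPM over the 21 libraries, whereas miR-93-3p ran from 4.85 to 16.7 CPM and miR-25-5p from 1.45 to 7.13 CPM, or 5 to 50 reads, where counting error weighs more. Against day 0, the number of these 3 other strands that were higher was 2, 3, 3, 2, 1 and 0 on days 1, 2, 3, 7, 14 and 28. None was lower on any day. Over all miRNAs tested, 14.2%, 24.4%, 30.4%, 29.7%, 25.1% and 11.1% were higher on days 1, 2, 3, 7, 14 and 28. Lower were 11.1%, 19.0%, 19.0%, 22.7%, 17.9% and 1.86% on the same days.

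miR-106b-3p rose on days 2, 3 and 7. Replicates 1, 2 and 3 had 54.2, 52.6 and 41.4 CPM on day 0, 61.7, 65.3 and 56.8 on day 1, 80.2, 80.2 and 78.8 on day 2, 80.5, 78.3 and 84.9 on day 3, 72.6, 74.4 and 88.2 on day 7, 58.9, 50.6 and 73.3 on day 14, and 44.5, 51.0 and 59.8 on day 28. All libraries of days 1, 2, 3 and 7 lay above day 0, and those of days 14 and 28 overlapped with it. Its log2 fold changes were 0.31, 0.69, 0.72, 0.66, 0.29 and 0.066 on days 1, 2, 3, 7, 14 and 28 (SE 0.14, adjusted p = 0.117, 0.000527, 0.000287, 0.000493, 0.101 and 0.813 in limma), a plateau like that of miR-25-3p. Over the 7 day means its r was 0.970 with miR-25-3p and 0.807 with its own partner miR-106b-5p. The day 7 mean of that partner includes replicate 2 at 320 CPM, where miR-106b-3p had 74.4 CPM.

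miR-93-3p and miR-25-5p had their largest fold change on day 2. miR-93-3p had 14.96, 13.4 and 13.9 CPM on day 2, against 6.51, 6.88 and 7.53 CPM on day 0, with no overlap. Its log2 fold changes were 0.55, 0.92, 0.76, 0.69, 0.52 and -0.26 on days 1, 2, 3, 7, 14 and 28 (SE 0.18, adjusted p = 0.0283, 0.000335, 0.00154, 0.00287, 0.0233 and 0.384). miR-25-5p had 7.13, 5.48 and 5.55 CPM on day 2, against 2.08, 2.10 and 1.45 CPM on day 0, and log2 fold changes of 0.87, 1.29, 0.94, 0.45, 0.56 and 0.72 (SE 0.28, adjusted p = 0.0256, 0.000754, 0.00784, 0.188, 0.105 and 0.0979), which a pseudocount of 1 pulls down at such levels.

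In late against early days all 3 other strands were lower, by 0.23 for miR-106b-3p (adjusted p = 0.0288), 0.43 for miR-93-3p (0.00248) and 0.46 for miR-25-5p (0.0291), where 17.6% of all miRNAs were lower. Of the leading strands 0 were lower with TMM in the same comparison, and miR-25-3p was lower with library totals and upper-quartile scaling. Of all calls there 52.8% were higher with TMM, 29.3% with library totals and 38.2% with upper-quartile scaling. The number of leading reads per read of the other strand was also followed within each library. For mir-93 it was 137 ± 18.7 at day 0, 90.9 ± 18.9 at day 1, 76.3 ± 2.65 at day 2, 101 ± 4.76 at day 3, 129 ± 23.5 at day 7, 109 ± 1.06 at day 14 and 184 ± 30.9 at day 28 (SD, n = 3). For mir-25 it was lowest on day 2 too, at 362 ± 47.1, against 761 ± 67.3 on day 0. For mir-106b it was 1.62 ± 0.156 on day 2 and 1.94 ± 0.457 on day 0, and it reached 4.31 in replicate 2 of day 7. These strand ratios were not tested.

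The seed families show what part of the reads with each seed came from the cluster. miR-93-5p and miR-106b-5p together made up 81.4% ± 1.74 of the levels of 6 strands with their seed at day 0, 71.8% ± 2.18 at day 1, 75.2% ± 0.440 at day 2, 77.5% ± 1.61 at day 3, 80.8% ± 0.778 at day 7, 80.8% ± 1.52 at day 14 and 81.2% ± 0.668 at day 28 (SD, n = 3). The share on days 1, 2 and 3 was below that of day 0 in every library. The cluster therefore led its seed family in reads throughout, with its lowest share on day 1. miR-25-3p held 20.1% ± 0.782 of its own family on day 0 and 12.8% ± 1.17 on day 1, and returned to 20.3% ± 1.24 on day 7, while miR-92a-3p held 85.0% on day 1, against 75.3% on day 0.

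**Figure D4:**
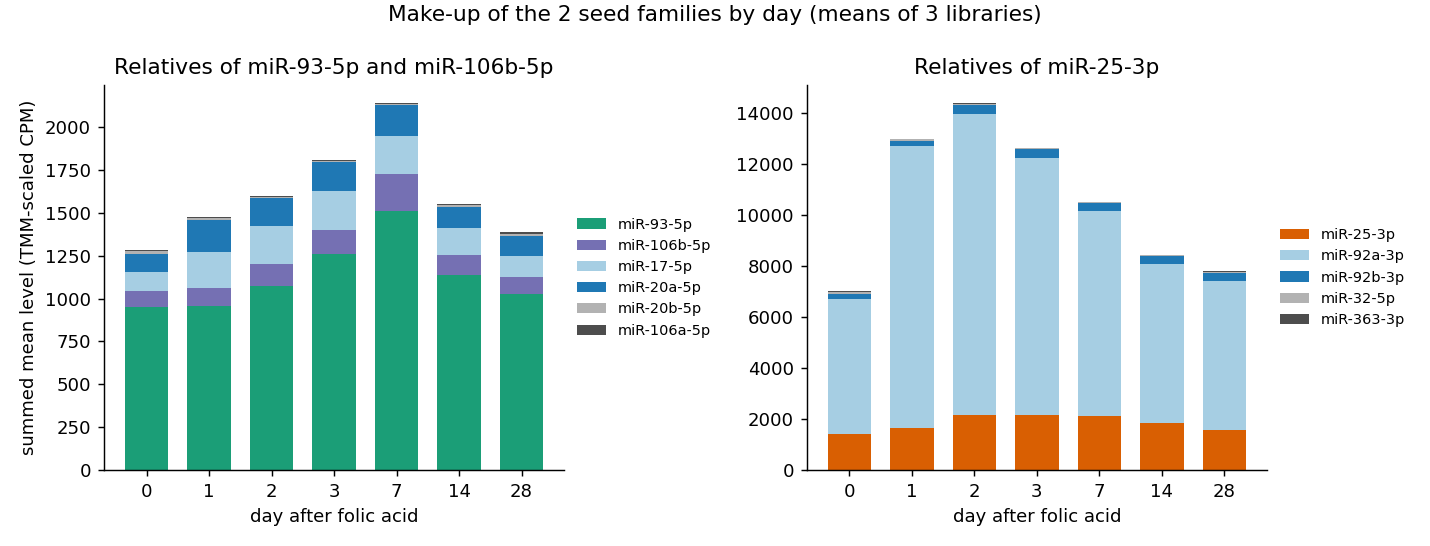
Summed mean levels (TMM-scaled CPM, means of 3 libraries, bars from 0) of the strands with the seed of miR-93-5p and miR-106b-5p (left) and with the seed of miR-25-3p (right), by day. The cluster makes up most of the left bars on every day and 12.8% to 21.7% of the right bars, where miR-92a-3p leads.

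The relatives of the paralogous clusters moved in opposite directions. miR-17-5p, from the miR-17 to miR-92a cluster of chromosome 14, had 188, 216 and 237 CPM on day 1, against 102, 105 and 108 CPM on day 0. Its log2 fold changes were 1.01, 1.04, 1.10, 1.05, 0.56 and 0.25 on days 1, 2, 3, 7, 14 and 28, called on all but day 28 (adjusted p = 1.06e-05, 4.31e-06, 1.24e-06, 1.87e-06, 0.00201 and 0.253). miR-20a-5p of the same cluster had 0.80, 0.65, 0.65, 0.75, 0.24 and 0.083, called on days 1, 2, 3 and 7, and miR-92a-3p had 1.06, 1.16, 0.93, 0.60, 0.24 and 0.15, called on the same days. On day 1, then, miR-17-5p, miR-20a-5p and miR-92a-3p passed the test and 0 members of the miR-106b to miR-25 cluster did. The difference between the clusters was not tested.

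The strands of the paralogous clusters were also counted by list, with miR-17-5p, miR-20a-5p and miR-92a-3p included again. Of 12 listed strands of the miR-17 to miR-92a cluster 10 were in the table under these names and 9 were tested, of which 7, 7, 8, 8, 4 and 0 rose on days 1, 2, 3, 7, 14 and 28 and none fell, with medians of 1.06, 1.05, 1.10, 1.05, 0.53 and 0.15. Among all miRNAs tested, 14.2%, 24.4%, 30.4%, 29.7%, 25.1% and 11.1% rose on these days. miR-92a-3p and miR-19b-3p of that list can also come from chromosome X. The cluster on chromosome X, miR-106a to miR-363, moved down. Of its 10 listed strands 8 were in the table and 3 were tested, and of these 1, 3, 3, 3, 2 and 0 fell and none rose. The share of all miRNAs that fell was 11.1%, 19.0%, 19.0%, 22.7%, 17.9% and 1.86% on the same days. miR-20b-5p, which has the seed of miR-93-5p, had 4.55, 6.99 and 6.96 CPM on day 7, against 14.3, 16.4 and 25.5 CPM on day 0 (log2 fold change -1.44, adjusted p = 0.000281), and miR-363-3p, which has the seed of miR-25-3p, fell by 1.33 on that day (adjusted p = 7.73e-05).

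Of the remaining relatives, miR-92b-3p averaged more than miR-106b-5p on every day, at 284 CPM on day 7 and 211 CPM on day 0. miR-106a-5p fell by 0.68, 0.72 and 1.04 on days 2, 3 and 7 on the log2 scale. miR-32-5p, a relative of miR-25-3p on chromosome 4, fell on days 2, 3, 7 and 14 by 0.53, 0.61, 0.42 and 0.52. miR-92b-3p, on chromosome 3, rose by 0.69, 0.73, 0.41 and 0.46 on these days and was at -0.043 on day 1, and miR-367-3p had no read in any library. A count of 0 allows up to 3 reads, or 1.04 CPM in the shallowest library and 0.422 in the deepest, for counting error only.

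The miRNAs with the course most like that of the members were found by the mean, over the 3 members, of Pearson's r across the 7 day means, among 288 other miRNAs with at least 10 CPM on average. They were miR-3096b-3p (mean r 0.926), miR-34c-5p (0.917), miR-17-3p (0.909), miR-330-5p (0.907) and miR-3096-3p (0.895). Their levels were used to choose them and are given as a description, with no test. miR-34c-5p, a miRNA known to be induced by p53, had 364 ± 51.6 CPM on day 7 and 230 ± 39.3 CPM on day 0 (SD, n = 3 each, log2 fold change 0.66). miR-330-5p had 105 ± 13.9 CPM on day 7 and 61.1 ± 4.45 CPM on day 0 (0.77). miR-17-3p is the other strand of the miR-17 hairpin and had 23.8 ± 1.25 CPM on day 7 and 13.5 ± 1.26 CPM on day 0 (0.78), a course that peaked on day 7 while its partner miR-17-5p had risen by day 1. Of these 5, 1 was among the first 5 by Spearman's rank correlation and 2 by Pearson's r over the 21 libraries. The choice therefore depends on the measure. The Spearman count rests on ties, since miR-330-5p (placed 3) and miR-17-3p (placed 7) both had a mean of 0.940.

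Markers of other cells changed over the same days. The 6 leukocyte miRNAs listed, which include miR-142-3p, miR-142-5p and miR-223-3p, summed to 935 to 1232 CPM at day 0, 1321 to 1504 at day 1, 1602 to 1663 at day 2, 1967 to 2840 at day 3, 2275 to 3330 at day 7, 2319 to 2787 at day 14 and 2007 to 2156 at day 28. Of the 6, the number higher than day 0 was 4, 5, 5, 4, 4 and 4 on days 1, 2, 3, 7, 14 and 28. Over all miRNAs tested the share was 14.2%, 24.4%, 30.4%, 29.7%, 25.1% and 11.1%. On day 7 the higher leukocyte miRNAs included miR-142-3p at a log2 fold change of 2.08 and miR-223-3p at 2.45. miR-150-5p, a lymphocyte miRNA, was called only on day 2, when it was lower (log2 fold change -0.66, adjusted p = 0.00975).

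The 4 erythroid miRNAs, miR-451, miR-144-3p, miR-144-5p and miR-486-5p, were highest on days 1 and 2. They summed to 1293 to 3380 CPM at day 0, 4508 to 7654 at day 1, 4729 to 9598 at day 2, 1139 to 1771 at day 3, 766 to 2382 at day 7, 694 to 2755 at day 14 and 1107 to 2084 at day 28. Of the 4, 1 was higher than day 0 on day 1 and 3 on day 2, and 2 were lower on day 3 and 2 on day 14. Among all miRNAs tested, 14.2% and 24.4% were higher on days 1 and 2, and 19.0% and 17.9% lower on days 3 and 14. By day mean, miR-92a-3p and the other strands of mir-93 and mir-25 were highest relative to the cluster's leading strands on days 1 and 2. For mir-25, day 1 and day 28 were close, at 428 and 432 leading reads per other read. Libraries of day 1 overlapped with later days for both hairpins, and miR-25-5p had only 5 to 50 reads. On day 3, with the erythroid sum at 1139 to 1771 CPM, miR-92a-3p averaged 10062.5 CPM, against 5286 CPM on day 0. A link between the erythroid miRNAs and these strands was not tested. The 3 tubule miRNAs in the table of 4 listed, led by miR-192-5p, summed to 109489 to 129330 CPM on day 0, 58920 to 73937 on day 7, 56078 to 75820 on day 14 and 87371 to 106863 on day 28 and were present in every library. On day 7, 2 of these 3 were lower than day 0 and 1 was higher, where 22.7% of all miRNAs were lower and 29.7% higher. No defining marker of leukocytes or erythroid cells was at 0 in any library. The part of these cells in the levels of the members was not tested.

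**Figure D5:**
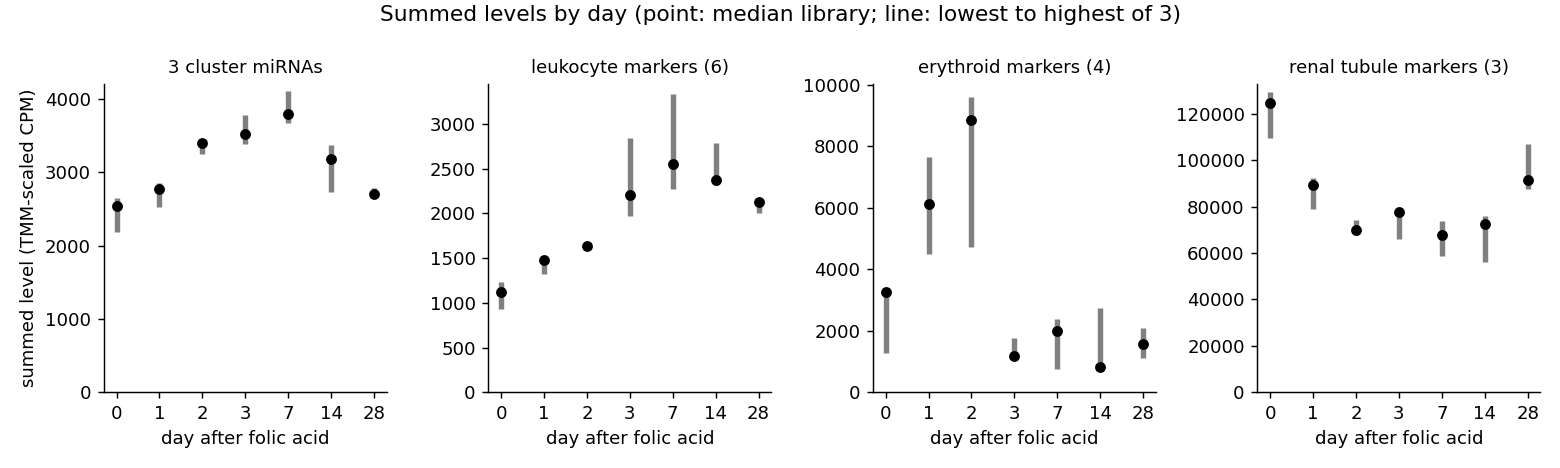
Summed levels (TMM-scaled CPM, axes from 0) of the 3 cluster miRNAs and of the leukocyte, erythroid and tubule marker lists by day, with the median library as a point and the range of 3 libraries as a line. The cluster sum is highest on day 7, with the leukocyte sum, and at 2669 to 2781 CPM on day 28, just above its day 0 range of 2188 to 2643 CPM.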

How the data were processed

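The 21 small RNA libraries of mouse kidney were made with an Illumina TruSeq kit, per the labels' protocols. The authors deposited CPM for 1125 miRNAs, of which 250 had no read. CASAVA 1.8 and build mm9 were used, per the submitters' processing notes, while no aligner, counting tool or miRBase version is named in the labels. Whole reads were recovered from the CPM steps for 100% of values, within 0.05 of a read (largest distance 0.0354). On them, filterByExpr (edgeR 4.0.16, minimum count 10) kept 431 miRNAs, on which TMM factors were computed. The test was limma 3.58.1 (trend, R 4.3.3) on log2(CPM + 1) of the scaled values, a mean per day, all 21 libraries, Benjamini-Hochberg over 431 miRNAs at 0.05. Fold changes are on that scale, where the pseudocount pulls those of scarce miRNAs toward 0. Ratios used permutations of libraries. edgeR's quasi-likelihood test on the recovered reads, the count test added as an alternative, called 105 miRNAs at day 1 against day 0, 193 at day 2, 211 at day 3, 225 at day 7, 184 at day 14 and 52 at day 28, where limma called 109, 187, 213, 226, 185 and 56. The other alternatives were DESeq2 1.42.0, other scalings, pseudocounts 0.5 and 5, no filter, robust variance, a replicate block, fits of 2 days and leaving out each library.

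Named miRNAs are the members, the other strands of their hairpins, detected seed relatives and strands of the paralogous clusters, the 5 miRNAs most like the members in course, and listed markers. Members and lists were chosen with earlier results of these data known. miR-133a-3p and miR-500-3p were named after their values were seen. Limits from a count of 0 cover counting error only, since reads copied by PCR were not marked.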

Additional observations from a re-analysis of the deposited data

How the results depend on the processing

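Of the 3 members, no call of day 7 against day 0, of the F test or of day 28 against day 7 was lost under any of 12 other settings (10 for the F test), and miR-25-3p on days 2 and 3 and miR-93-5p on day 3 also kept theirs under the 12 settings and the 21 omissions of a library. In all, 124 of 1377 repeats of 42 member results, 47 of 459 repeats of 14 counts of calls and 4 of 69 repeats of 3 ratio tests changed side, sign or size. The cause was not tested. Day 0 libraries enter every comparison with day 0, and the labels give no batch. Where days differed by little, the sign could turn with the scaling or with a library left out.

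Log2 fold changes that differed by setting are given next. On day 1 miR-93-5p turned to -0.000512 with RLE scaling and -0.00391 with DESeq2. On day 2 miR-106b-5p was called at 0.65 with library totals, 0.46 with robust variance and 0.46 in a fit of the 2 days, and miR-93-5p at 0.37 with library totals. On day 14 miR-93-5p was not called with RLE (0.21), upper-quartile scaling (0.22), no filter (0.24), TMM factors from all miRNAs (0.24, added after the data were seen) or the fit of 2 days (0.24), nor miR-25-3p in the fit of 2 days (0.36). On day 28 miR-106b-5p turned to -0.028 with library totals and -0.072 with upper-quartile scaling, where miR-93-5p was at -0.014.

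Of the steps, miR-25-3p on day 2 against day 1 was called at 0.49 with library totals and 0.38 with DESeq2. On day 3 against day 2 it turned to -0.00717 with library totals, -0.055 with RLE, -0.072 with upper-quartile scaling, -0.000517 with no filter and with TMM factors from all miRNAs, -0.034 in the fit of 2 days and -0.052 with DESeq2, and on day 7 against day 3 to 0.00343 in the fit of 2 days. DESeq2 called miR-106b-5p (0.65) and miR-93-5p (0.27) on day 7 against day 3. On day 14 against day 7 miR-106b-5p was not called with no filter (-0.79) or in the fit of 2 days (-0.80), nor miR-93-5p with upper-quartile scaling (-0.25), no filter (-0.38), TMM factors from all miRNAs (-0.38) or the fit of 2 days (-0.39). Late against early, miR-106b-5p turned to -0.029 with library totals, miR-93-5p was not called with library totals (0.016), RLE (0.13), upper-quartile scaling (0.071), no filter (0.13) or TMM factors from all miRNAs (0.13), and miR-25-3p was called lower at -0.24 with library totals and -0.18 with upper-quartile scaling.

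Counts of miRNAs called moved most for the steps. Day 2 against day 1 gave 12, or 6 with no filter, 20 in the fit of 2 days and 23 with DESeq2. Day 3 against day 2 gave 23, or 13 with upper-quartile scaling and 9 with no filter. Day 7 against day 3 gave 8, or 3 with no filter and 21 with DESeq2. Day 14 against day 7 gave 19, or 8 with no filter, 11 with TMM factors from all miRNAs, 0 in the limma fit of 2 days, 20 with edgeR and 25 with DESeq2. Day 28 against day 14 gave 53, or 19 with no filter and 24 in the fit of 2 days. The likeness of course kept 1 of the 5 named miRNAs with Spearman's correlation, a count that rests on ties, and 2 with Pearson's over the libraries.

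Leaving out each library in turn gave these ranges. For miR-106b-5p the log2 fold change ran from 0.38 to 0.54 on day 2, 0.46 to 0.59 on day 3 and -0.013 to 0.080 on day 28, from -0.030 to 0.18 for day 3 against day 2, 0.23 to 0.76 for day 7 against day 3, -0.99 to -0.49 for day 14 against day 7 and -0.040 to 0.18 for late against early. For miR-93-5p it ran from -0.10 to 0.071 on day 1, 0.15 to 0.32 on day 14, -0.46 to -0.30 for day 14 against day 7 and 0.10 to 0.18 for late against early. For miR-25-3p it ran from 0.23 to 0.49 on day 14, 0.30 to 0.46 for day 2 against day 1, -0.058 to 0.056 for day 3 against day 2, -0.063 to 0.065 for day 7 against day 3 and -0.48 to -0.37 for day 28 against day 7. Counts of calls ran from 37 (without day 28 replicate 1) to 66 on day 28, 2 to 23 for day 2 against day 1 (lowest without day 2 replicate 1), 6 to 23 for day 3 against day 2 (without day 3 replicate 2), 4 to 21 for day 7 against day 3 (without day 3 replicate 1), 5 to 46 for day 14 against day 7 (without day 14 replicate 2) and 11 to 70 for day 28 against day 14 (without day 28 replicate 2). The adjusted p ran from 0.0401 to 0.457 for the ratio of miR-106b-5p to miR-93-5p and from 0.0298 to 0.524 for miR-106b-5p to miR-25-3p.

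The deviations of libraries with the same replicate number had a median correlation of -0.0193 (63 pairs, 15 over 0.1). Those of libraries with different numbers had a median of 0.0024 (126 pairs, 28 over 0.1). Of the 21 libraries, 6 were closest to their own number. Whether the numbers pair the libraries was not tested. A replicate block changed no call of a member and gave 111, 189, 209, 223, 185 and 54 calls on days 1, 2, 3, 7, 14 and 28 against day 0.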
